A study of Mus musculus with 18 samples.

Results

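Hemidesmosomes and laminin-332 hold basal keratinocytes, the lowest cell layer of the epidermis and hair follicle, to the basement membrane. The data below describe 9 genes of this anchorage among the 32285 genes measured in each library, taken by symbol: the integrin subunits Itga6, Itgb4, Itga3 and Itgb1, the transmembrane collagen Col17a1, the plakin linkers Dst and Plec, and the laminin chains Lama3 and Lamb3. All 9 symbols were found once in each of 10 mRNA libraries of mouse skin. The libraries came from a study of skin stretched by an expander under the skin, to follow how skin cells respond over the first days.

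Integrin α6β4 (Itga6 with Itgb4) is the receptor of the hemidesmosome and binds laminin-332 outside the cell. Inside the cell, plectin (Plec) and the epithelial form of dystonin (Dst, also called BPAG1e) tie α6β4 and type XVII collagen (Col17a1, BP180) to the keratin filaments Krt5 and Krt14. Laminin-332 is a trimer that holds the α3 and β3 chains, encoded by Lama3 and Lamb3, and is secreted mainly by the keratinocytes that sit on it. Integrin α3β1 (Itga3 with Itgb1) binds the same laminin but links to actin, and Itgb1 also pairs with many other α subunits in most cell types. Loss of any of Itga6, Itgb4, Col17a1, Plec, Lama3 or Lamb3 causes skin blistering.

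Every mouse, control or expanded, underwent the same operation, an incision near the tail from which a tunnel was opened under the skin to the neck. Expanded mice (EXP) then received a hydrogel expander near the neck, and control mice (CTRL) received none. No genotype, strain, sex or age is given in the labels. Each arm had 5 libraries, from day 1 in sequencing rounds 1 and 2, day 2 in rounds 1 and 2, and day 4 in round 1, and values per library are given below in that order. A library is a pool of the mice of its arm and round, sorted for living cells, so p-values measure the spread between pools and day and round are shared within each of 5 pairs. The libraries held 17726739 to 75470722 gene UMIs (counted molecules), and 45473 cells were used, with 1852 to 7959 in each library and median depths between 6440.5 and 12847.5 UMIs a cell. Any library pair shared 1 to 23 barcodes. Levels are UMIs per 1000000 UMIs of all genes (CPM), summed over the cells of a subset in a library, and are given as mean ± SD over libraries. UMIs were counted at the 3′ end of transcripts, so a gene is compared only with itself, and isoforms of Dst, Plec, Itga6 and Lama3 are not told apart.

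Keratinocytes numbered 4878, with 2021 control and 2857 expanded cells and 11970 and 16158 UMIs per cell. Clusters were named from marker genes, without use of the 9 genes. Follicle bulge-like cells (Cd34, Lgr5, Postn, Krt24, Lhx2 and Sox9, the stem cell region of the hair follicle) made up 25.8% ± 6.12 of keratinocytes in control and 37.0% ± 10.8 in expanded libraries (SD, n = 5 each). The genes named are those of the largest bulge-like cluster, and Sox9 was not a marker of k2 nor Lgr5 of k10. Upper follicle-like cells (Krt79, Defb6, Fst, Plet1, Lrig1) made up 24.3% ± 6.26 and 20.2% ± 3.13. They include cluster k12, with 153 cells, whose markers were Krt17, Cst6, Plet1 and Lrig1, beside 2 of the inner bulge or companion layer. Basal-like cells (Krt5, Krt14, Avpi1) made up 5.05% ± 1.22 and 9.60% ± 2.21, cycling cells 13.3% ± 4.61 and 6.30% ± 4.86, suprabasal-like cells 7.88% ± 3.54 and 4.84% ± 1.66, and sebaceous-like cells 9.20% ± 3.40 and 6.59% ± 5.92. A further 3 clusters, k4, k8 and k11, carried markers of more than 1 subset or too few of any and kept their numbers. Suprabasal-like cells, which have left the basement membrane, carried 8 of 8 suprabasal markers. Of 8 basal markers, the basal-like clusters k5 and k13 carried only 3 and 4. They also carried 2 and 3 suprabasal markers, and k5 carried 4 cycling markers. Sums over all keratinocytes of a library mix these subsets in the shares just given.

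The hemidesmosome receptor was present in every keratinocyte subset, and both of its subunits were lowest in suprabasal-like cells. Itga6 (chr2:71745616-71858416 of GRCm38, plus strand) had its highest mean in basal-like cells, at 416 CPM ± 79.0 (SD, n = 8 libraries with at least 10 such cells), followed by bulge-like cells with 329 ± 74.1 (n = 10), upper follicle-like cells with 306 ± 73.8 (n = 10), sebaceous-like cells with 281 ± 95.1 (n = 8) and cycling cells with 278 ± 134 (n = 8). Suprabasal-like cells had 157 ± 59.3 (n = 7). The basal-like mean lay more than 1 SD above the bulge-like one, and from there down each subset lay within 1 SD of the next. Itgb4 (chr11:115974709-116008412, plus strand), the β4 subunit of the receptor, was at 185 CPM ± 49.9 in bulge-like and 169 ± 58.0 in basal-like cells, which do not differ beyond their spread. It was lower in cycling (91.4 ± 50.3), upper follicle-like (87.5 ± 15.3), sebaceous-like (61.3 ± 40.6) and suprabasal-like cells (37.7 ± 31.7), with the same numbers of libraries as for Itga6, and each of these lay within 1 SD of the next.

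The subunits of α3β1 followed different orders. Itga3 (chr11:95044474-95076801, minus strand) was at 52.6 CPM ± 16.6 in basal-like, 48.7 ± 10.3 in bulge-like and 43.8 ± 27.1 in cycling cells, and at 5.60 ± 10.5 in suprabasal-like cells. Upper follicle-like cells had 23.8 ± 6.04 and sebaceous-like cells 23.3 ± 16.7, and only the step from there to the suprabasal-like cells exceeded 1 SD. Itgb1 (chr8:128685654-128733200, plus strand) was about level from sebaceous-like (296 ± 73.2) through basal-like (262 ± 76.0), bulge-like (254 ± 39.7), cycling (222 ± 81.3) and upper follicle-like cells (199 ± 59.0), each within 1 SD of the next. It then fell away to 30.9 ± 13.1 in suprabasal-like cells, and the libraries of these last 2 subsets did not overlap.

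Col17a1 and Dst had their highest means in the bulge. Col17a1 (chr19:47646344-47692094, minus strand), a known gene of hair follicle stem cell upkeep, reached 1284 CPM ± 285 in bulge-like cells and 947 ± 371 in basal-like cells, within 1 SD of each other. Upper follicle-like cells had 399 ± 108, cycling cells 385 ± 280, suprabasal-like cells 301 ± 160 and sebaceous-like cells 146 ± 72.3. Dst (chr1:33908225-34308661, plus strand) had 784 CPM ± 217 in bulge-like, 510 ± 256 in basal-like, 421 ± 65.0 in upper follicle-like, 319 ± 120 in sebaceous-like, 291 ± 106 in cycling and 272 ± 97.8 in suprabasal-like cells. The basal-like mean lay more than 1 SD below the bulge-like one, and from there down each subset lay within 1 SD of the next. Plec (chr15:76170974-76232574, minus strand), which overlaps Parp10 on its own strand so that reads near the shared end are uncertain, varied least from its highest to its lowest mean: 251 CPM ± 49.2 in basal-like, 220 ± 31.8 in bulge-like, 178 ± 15.4 in upper follicle-like, 169 ± 47.4 in cycling, 133 ± 49.3 in suprabasal-like and 120 ± 43.6 in sebaceous-like cells.

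Over the libraries of both arms, the 2 laminin chains had their highest means in the bulge and fell steeply towards the suprabasal cells. Lama3 was at 77.0 CPM ± 28.6 in bulge-like, 53.9 ± 17.3 in basal-like, 42.8 ± 14.6 in cycling, 40.8 ± 14.7 in upper follicle-like, 32.1 ± 17.1 in sebaceous-like and 16.5 ± 5.76 in suprabasal-like cells. Each of these lay within 1 SD of the next. Lamb3 lies at chr1:193207699-193343878 on the plus strand, and Hsd11b1 and G0s2 lie on the other strand within this span. It was at 162 CPM ± 48.4 in bulge-like, 123 ± 63.9 in basal-like, 72.8 ± 23.5 in upper follicle-like and 54.5 ± 24.7 in cycling cells. From there it dropped to 19.0 ± 9.91 in sebaceous-like and 17.9 ± 7.90 in suprabasal-like cells. By arm, Lamb3 was at 176 CPM ± 42.2 in basal-like (at least 10 cells) and 169 ± 16.8 in bulge-like control libraries (at least 20 cells, n = 4 each). In expanded libraries it was at 70.6 ± 17.2 (n = 4) and 132 ± 16.5 (n = 5). Over both arms, 5 of the 9 genes had their highest mean in bulge-like cells, namely Itgb4, Col17a1, Dst, Lama3 and Lamb3. Leaving out single libraries gave 4 to 6.

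**Figure D1:**
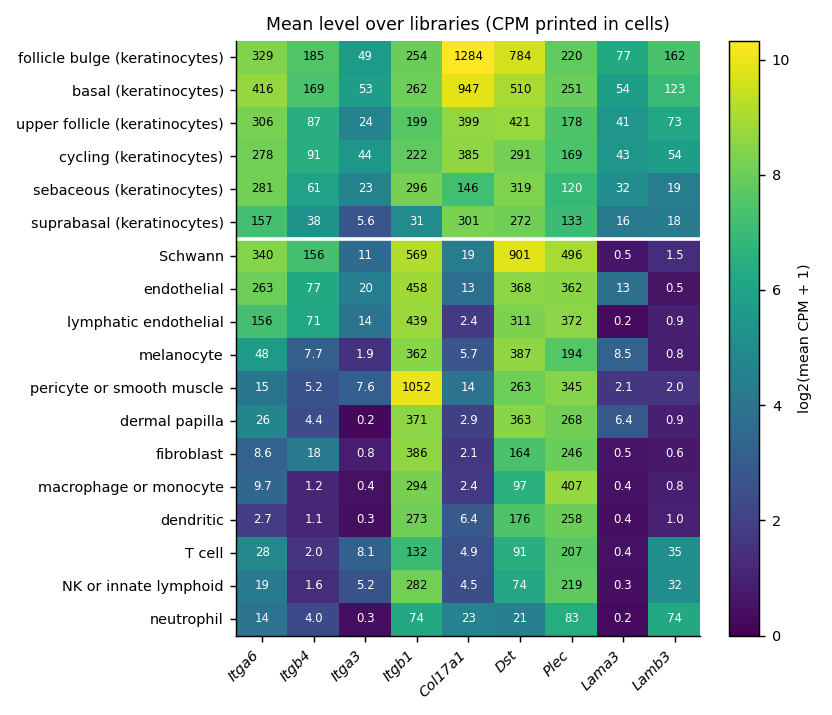
Mean CPM of the 9 genes (columns) in 6 keratinocyte subsets (libraries with at least 10 cells) and, below the white line, 12 other classes of skin cell (at least 20 cells); colour is log2(mean CPM + 1) and the printed number the mean CPM. Col17a1 reaches 1284 in bulge-like cells and at most 23.1 outside the keratinocytes, while Itgb1 peaks at 1052 in pericytes or smooth muscle.

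Because deeper cells show more genes, each cell was also thinned to 2000 UMIs. Then 88.9% of 1669 bulge-like cells held at least 1 Col17a1 UMI, against 76.2% of 411 basal-like, 49.6% of 1004 upper follicle-like and 34.0% of 329 suprabasal-like cells. For Dst the shares were 68.0% in bulge-like, 50.6% in basal-like and 51.3% in upper follicle-like cells. For Lamb3 they were 26.4%, 18.5% and 13.9% in the same subsets and 2.43% in suprabasal-like cells. On this scale the bulge had the highest share for 6 of the 9 genes. These shares pool the cells of both arms, which were unequal in number. Before thinning there were 109 control and 307 expanded basal-like cells and 517 and 1169 bulge-like cells. The Lamb3 share in basal-like cells is given by arm below.

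Outside the keratinocytes the set came apart. The receptor pair was prominent in Schwann-like cells, where α6β4 binds the laminin around nerves, with Itga6 at 340 CPM ± 53.6 and Itgb4 at 156 ± 62.6 (SD, n = 9 libraries). It was also present in blood endothelial-like cells, with Itga6 at 263 ± 52.8 and Itgb4 at 77.1 ± 23.1, and in lymphatic endothelial-like cells, with 156 ± 35.5 and 71.4 ± 14.4 (n = 10 each). Itga3 was at 20.3 ± 5.09 in endothelial-like cells. Itgb1 was highest of all in pericyte or smooth muscle-like cells, at 1052 ± 132. Dst, of which other isoforms serve nerve and muscle, reached 901 ± 139 in Schwann-like cells and 387 ± 71.3 in melanocyte-like cells (n = 8), and Plec 496 ± 82.5 in Schwann-like and 407 ± 122 in macrophage or monocyte-like cells.

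Col17a1 was low outside the keratinocytes: no other class had a mean above 23.1 CPM, and fibroblast-like cells had 2.13 ± 1.60. Lama3 was at 13.0 ± 4.16 in endothelial-like cells, 8.49 in melanocyte-like and 6.39 in dermal papilla-like cells, and at most 3.20 elsewhere. Lamb3 differed from Lama3, its partner in the trimer, in that lymphoid cells and neutrophils also carried it, with 74.0 CPM ± 34.8 in neutrophil-like (n = 8), 34.8 ± 8.82 in T cell-like and 32.0 ± 14.7 in natural killer or innate lymphoid-like cells (n = 10 each). In all other non-keratinocyte classes it was at most 1.97. G0s2, which lies on the other strand within the Lamb3 span, was among the leading genes of the neutrophil-like cluster. Its part in the Lamb3 counts was not tested. T cell-like cells had 5.79 Lamb3 UMIs per Col17a1 UMI, natural killer-like cells 7.05 and neutrophil-like cells 10.9, while keratinocytes had 0.115 and fibroblast-like cells 0.244, so the ratio in these leukocytes was far from that of keratinocytes. After thinning to 2000 UMIs, 6.78% of control and 7.49% of expanded T cell-like cells held a Lamb3 UMI, against 0.130% and 0.071% of fibroblast-like cells.

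Over 20 subsets and classes, the means of Itga6 and Itgb4 on the log2(CPM + 1) scale correlated at r = 0.91, those of Itga6 and Itga3 at 0.88, Col17a1 and Lama3 at 0.85 and Col17a1 and Lamb3 at 0.77. Itgb1 and Lamb3 were at −0.55. These are descriptions across cell types that share libraries. Among 12902 other genes, the closest to Col17a1 were Krt15, Krt5, Dsg3, Krt6a and Ckmt1, with r from 0.97 to 0.98. For Itga6 they were Ccdc85c (0.91), Dusp6, Tgfa, Ptn and Hoxb7 (0.87), and for Itgb4 Ptn (0.91), Hoxb7, Cpne8, Moxd1 and Naprt (0.87). For Lamb3 they included Acpp (0.92), Stk26, Krtcap3 and Sytl1 (0.86).

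Over all keratinocytes of a library, the hemidesmosomal β4 subunit and the α3 subunit rose with expansion, and the other members did not pass the test. Itgb4 was at 82.5, 74.0, 69.2, 109.5 and 75.9 CPM in the control and 171, 161, 125, 149.9 and 107 CPM in the expanded libraries. It was higher in 5 of 5 pairs, and only the expanded library of day 4 lay within the range of the controls. Means were 82.2 ± 16 and 143 ± 26.5 (SD, n = 5 each), a log2 fold change of 0.74 (SE 0.13, adjusted p = 0.011, edgeR's quasi-likelihood test, Benjamini-Hochberg over 11476 genes). Itga3 was at 31.0, 27.8, 26.4, 25.1 and 25.0 CPM in control and 46.6, 48.2, 38.6, 32.3 and 29.0 in expanded libraries, again higher in 5 of 5 pairs with ranges that overlap at day 4. Its log2 fold change was 0.49 (SE 0.12, edgeR adjusted p = 0.0314). With day and round as a block, the same 2 genes passed.

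Of the remaining 7, Col17a1 was at 649, 502, 448, 526 and 367 CPM in control and 1192, 962, 472, 621 and 379 in expanded libraries, higher in 5 of 5 pairs but by a wide margin only on day 1 (log2 fold change 0.40, SE 0.15, edgeR adjusted p = 0.12). Plec was higher in 5 of 5 pairs too (0.24, SE 0.10, adjusted p = 0.17). Dst was at 529, 448, 516, 515 and 406 CPM in control and 571, 499, 314, 407 and 308 in expanded libraries (−0.27, SE 0.13, adjusted p = 0.21), higher in both day 1 pairs and lower in the other 3. Itga6 (0.13), Itgb1 (0.06), Lama3 (−0.01) and Lamb3 (−0.07) had small values. So 2 of 9 passed, both higher, where 7.65% of all genes tested passed in either direction and 3.99% were called higher, and the median log2 fold change was 0.13 over the members and 0.01 over all genes. Among other genes of the structure, the keratins Krt5 (0.72, adjusted p = 0.0089) and Krt14 (0.54, adjusted p = 0.023) rose, while Cd151 (0.30), a tetraspanin of the hemidesmosome, and Erbin (−0.17), which binds β4, did not pass.

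Several values moved with these results. The share of bulge-like and basal-like cells, in which Itgb4, Itga3 and Col17a1 are highest, was larger in expanded libraries, as given above. Within subsets the log2 fold change of Itgb4 was 0.16 in bulge-like, 0.15 in upper follicle-like and −0.29 in basal-like cells, below the 0.74 of all keratinocytes, but 1.39 in cycling and 1.10 in k4 cells. That of Itga3 was 0.12, −0.15 and −0.45 in the first 3 of these and 1.08 and 0.22 in the others, and none of these 10 values passed the test. UMIs per cell were higher too, and with each cell thinned to 2000 UMIs the Itgb4 change was 0.55 (edgeR adjusted p = 0.12) and the Itga3 change 0.08 (adjusted p = 0.89), so neither passed. Itga3 also lost its call when any of the control libraries of day 1 or day 4, or their expanded partners, was left out (adjusted p from 0.0536 to 0.0969), and with cells over 5% mitochondrial UMIs removed (0.40, adjusted p = 0.0556). A list of 7 fibroblast genes (Col1a1, Col1a2, Col3a1, Dcn, Lum, Sparc and Dpt) summed to 313 to 1276 CPM in control and 90.3 to 274 CPM in expanded keratinocytes, with none at 0 and 6 of 6 tested called lower. A list of 7 leukocyte genes ran from 61.5 to 209 and from 81.5 to 1289 CPM, and the part of either list was not tested.

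**Figure D2:**
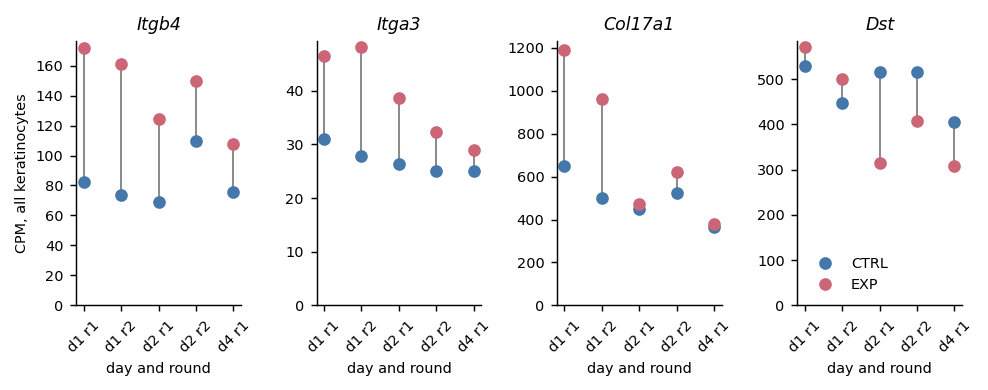
CPM of Itgb4, Itga3, Col17a1 and Dst (y axes from 0) in all keratinocytes of each library by day and round (d1 r1 to d4 r1), with a grey line joining the control (blue) and expanded (red) library of a pair. Expanded exceeds control in all 5 pairs for Itgb4, Itga3 and Col17a1, most on day 1 for Col17a1, and Dst is lower in 3 of 5.

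By day, members passed the test in all keratinocytes on day 1, and none passed on day 2 or day 4. On day 1 the log2 fold change of Itgb4 was 1.02 (SE 0.19, edgeR adjusted p = 0.014) and that of Col17a1 0.83 (SE 0.20, adjusted p = 0.034), so 2 of 9 passed against a background of 6.98%, or 2.81% called higher. Leaving out single libraries of any day gave 0 to 3 members on day 1. On day 2, 0 of 9 passed, as did 0% of all genes (4 members and 1216 of 11476 genes had an unadjusted p under 0.05). Itgb4 then had 0.53 and Itga3 0.48, while Dst had −0.54 and Lamb3 −0.50. On day 4, with 1 library per arm whose spread is assumed to be that of the other days, 0 of 9 passed against 0.0523% of genes, and no member had an unadjusted p under 0.05.

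The differences between days were tested directly and none passed. The difference of day 2 from day 1 was largest for Lamb3, at −0.84 (SE 0.26, edgeR adjusted p = 0.28). An unadjusted p under 0.05 was found for 3 members and for 1308 of 11476 genes. Of all genes, 0.105% were called. For day 4 against day 1 and against day 2 the shares called were 0% and 0%. There 1 and 0 members had an unadjusted p under 0.05, as did 632 and 416 of the 11476 genes. Within bulge-like cells, 0 of 9 members passed on day 1, day 2 or day 4, where 0.413%, 0% and 0% of genes did. An unadjusted p under 0.05 was found for 1 member on each day, and for 1679, 746 and 549 of 8467 genes. Within upper follicle-like cells the members called were again 0 on each day, with backgrounds of 0.132%, 0% and 0.0263%. There 2, 1 and 4 members had an unadjusted p under 0.05, as did 1146, 492 and 573 of 7599 genes. Dst in bulge-like cells was negative on all 3 days (−0.39, −0.80 and −0.52). Day 2 there rests on 1 control library, as control day 2 round 1 held 14 bulge-like cells, and day 4 on 1 library per arm.

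Summed per library, the basal-like subset of the expanded skin had lower levels of the laminin chains Lama3 and Lamb3, of Dst and of Col17a1. The subset joined clusters k13 and k5, which filled the arms unequally, as given below. Pooled over libraries and not tested, Col17a1 was not lower in expanded cells of either cluster, and Lama3 was not lower in those of k5. Too few libraries had 20 such cells, so those with at least 10 were used: control day 1 rounds 1 and 2, day 2 round 2 and day 4, and expanded day 1 rounds 1 and 2, day 2 round 1 and day 4, with 3 shared pairs. Lamb3 was at 184, 209.5, 115 and 197 CPM in control and 91.4, 77.1, 52.9 and 60.8 in expanded libraries, with no overlap. The means were 176 ± 42.2 and 70.6 ± 17.2 (SD, n = 4 each), a log2 fold change of −1.49 (SE 0.19, adjusted p = 0.00079, edgeR's quasi-likelihood test over 5440 genes). Dst was at 519, 676, 611 and 1003 CPM and 431, 366, 212 and 264 CPM, also without overlap (−1.30, SE 0.22, adjusted p = 0.0028). Both genes were called with any single library left out, with log2 fold changes from −1.57 to −1.39 for Lamb3 and from −1.44 to −1.04 for Dst. How many of all genes had arms without overlap was not counted, here or in the units below.

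Lama3 was at 58.2, 67.0, 50.6 and 88.1 CPM in control and 45.1, 49.1, 32.8 and 40.2 in expanded basal-like cells (−0.79, SE 0.22, edgeR adjusted p = 0.023). Its groups did not overlap, but the control libraries held only 11 to 31 Lama3 UMIs each. Col17a1 was at 1299.5, 1352, 666 and 1159 CPM and 1133, 1053, 557 and 354 CPM, with overlapping groups (−0.77, SE 0.24, adjusted p = 0.033). The 2 calls were lost with total UMI counts as the only scaling (adjusted p = 0.070 and 0.060) and without the filter on low counts (0.16 and 0.069). They were also lost without control day 1 round 2 (0.104 and 0.0747), control day 4 (0.0816 and 0.129), expanded day 1 round 1 (0.076 and 0.0528), expanded day 1 round 2 (0.0684 and 0.0762) or expanded day 4 (0.076 and 0.128), and that of Col17a1 also without control day 1 round 1 (0.068) and with the members and basement membrane genes kept in the clustering (0.0703). Without control or expanded day 4, the Col17a1 value was −0.43.

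All 4 were lower in 3 of 3 pairs, and in basal-like cells 0 of 9 members had a positive log2 fold change, or 1 of 9 without either day 4 library or with subsets from a clustering resolution of 1.5. The integrins came next: Itgb1 had −0.58 (SE 0.21, adjusted p = 0.059), Itga6 −0.44 (SE 0.19, adjusted p = 0.097), Itga3 −0.45 and Itgb4 −0.29, and Plec had −0.24. In Itgb4 the arms overlapped throughout, with 160.0, 201, 101 and 244 CPM in control and 228, 204, 106 and 110.1 CPM in expanded libraries. With day and round as a block, 5 members passed, Itga6, Itgb1, Col17a1, Dst and Lamb3, and Lama3 did not (−0.80, adjusted p = 0.054). That fit called 1450 of 7116 genes. The count of 4 of 9 stands against 27.0% of all genes called in either direction and 15% called lower in these cells, and the median of −0.58 against −0.02 over all genes. Total UMI scaling moved that median of all genes to 0.14 and the split of calls from 654 higher and 817 lower to 914 and 597, and all 9 members were negative under either scaling.

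**Figure D3:**
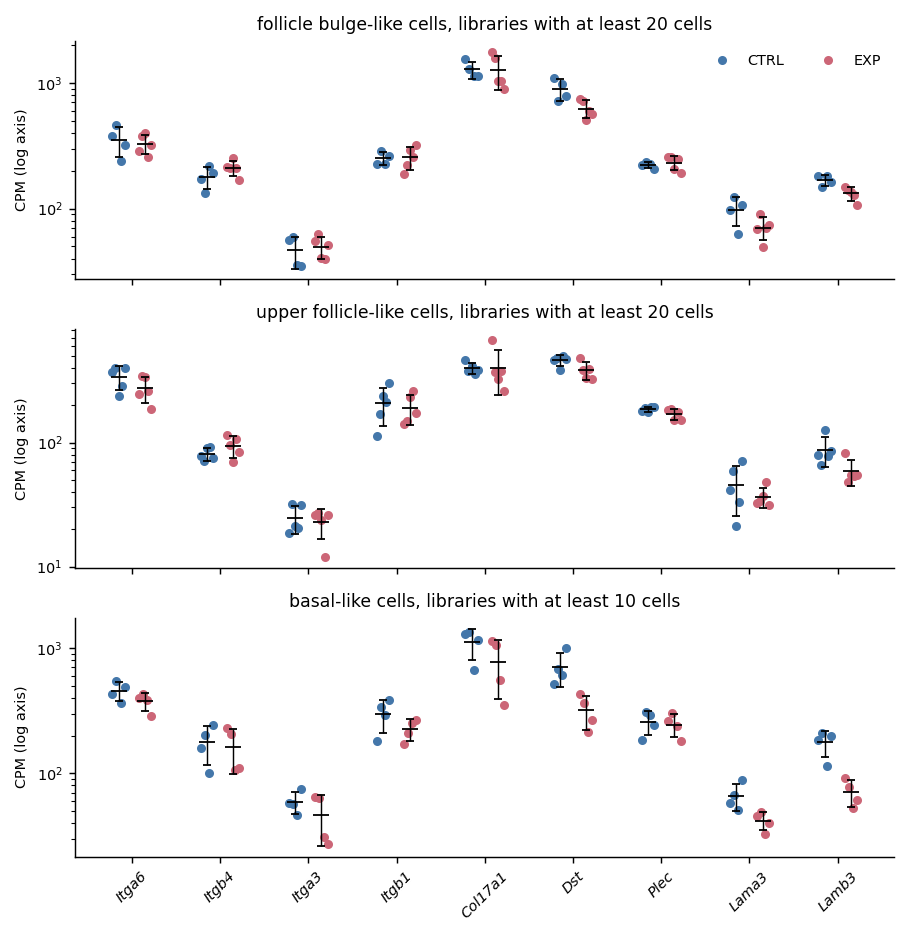
CPM of the 9 genes (log axis) in each control (blue) and expanded (red) library, for bulge-like and upper follicle-like cells (libraries with at least 20 cells) and basal-like cells (at least 10); black marks are the mean ± SD. In basal-like cells Lamb3, Dst and Lama3 do not overlap between the arms, whereas in bulge-like cells the arms overlap for Dst and the other genes.

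The RefSeq starts of the members called lower in basal-like cells are shown to give the sequence next to which these transcripts begin. Of the 9 members, 5 had an entry (Itga3, Itgb1, Col17a1, Dst and Lamb3; build GRCm38.p6). Each line is the 250 bases before a start, read 5′ to 3′ on the gene's strand, in lower case with matches to GGGCGG or GGAATG on either strand in capitals. They lie at chr19:47692043-47692292 (minus strand), at chr1:34011345-34011594 and chr1:34160010-34160259 and at chr1:193301744-193301993 and chr1:193301993-193302242 (plus strand).
Col17a1: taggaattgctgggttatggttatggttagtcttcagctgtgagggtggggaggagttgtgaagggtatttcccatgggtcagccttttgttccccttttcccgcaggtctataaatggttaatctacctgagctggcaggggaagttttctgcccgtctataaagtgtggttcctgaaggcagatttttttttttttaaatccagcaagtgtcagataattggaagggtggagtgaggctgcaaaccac
Dst, first start: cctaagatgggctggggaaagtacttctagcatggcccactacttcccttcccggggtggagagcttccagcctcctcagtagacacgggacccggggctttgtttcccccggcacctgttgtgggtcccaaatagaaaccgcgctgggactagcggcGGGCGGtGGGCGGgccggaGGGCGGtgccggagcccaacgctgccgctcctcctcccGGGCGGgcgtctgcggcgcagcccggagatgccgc
Dst, second start: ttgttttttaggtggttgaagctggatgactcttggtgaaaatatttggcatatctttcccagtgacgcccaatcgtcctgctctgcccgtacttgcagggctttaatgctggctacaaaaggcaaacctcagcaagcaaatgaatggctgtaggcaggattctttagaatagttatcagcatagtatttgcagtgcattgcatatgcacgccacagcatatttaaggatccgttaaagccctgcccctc
Lamb3, first start: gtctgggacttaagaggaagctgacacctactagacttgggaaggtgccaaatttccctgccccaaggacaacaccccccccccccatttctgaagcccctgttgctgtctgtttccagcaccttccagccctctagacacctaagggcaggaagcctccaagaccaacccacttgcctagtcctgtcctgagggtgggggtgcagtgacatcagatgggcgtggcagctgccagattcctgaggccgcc
Lamb3, second start: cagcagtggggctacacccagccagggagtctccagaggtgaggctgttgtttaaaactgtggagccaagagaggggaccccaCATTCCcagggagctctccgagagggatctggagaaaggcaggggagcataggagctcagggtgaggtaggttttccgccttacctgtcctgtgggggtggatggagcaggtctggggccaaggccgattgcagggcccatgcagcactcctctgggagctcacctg
The 2 starts of Dst differ in composition, with 68.8% and 45.2% G and C. The first window holds GGGCGG, the SP and KLF factor motif, 4 times, at 92, 85, 73 and 35 bases before the start, and the second holds none. The 3′ counts do not say which start the Dst or Lamb3 transcripts used. The second Lamb3 window holds 1 match to GGAATG (TEAD), 167 bases before its start, and the other 4 windows hold none. None of the 5 windows holds TGANTCA (AP-1), searched like the others on both strands, and the Col17a1 and Lamb3 windows hold no GGGCGG. Over 32851 RefSeq windows of this length, GGGCGG is found in 32.7%, GGAATG in 12.6% and TGANTCA in 6.75%.

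The basal-like subset joined 2 clusters that filled the arms unequally. Cluster k13 (Krt5, Krt14, Thbs1 and Avpi1, with Bmp3, Sox6 and Igfbp3 among its leading genes) held 83 control and 35 expanded cells, and cluster k5 (Krt5, Krt14 and Avpi1, led by Cstdc5 and Wnt16) held 26 and 272. Over all libraries of an arm, with exact 95% Poisson intervals that cover counting error only, Lamb3 in k13 was at 217 CPM (186 to 251) in control and 142 (113 to 176) in expanded cells. In k5 it was at 76.0 (45.7 to 119) and 68.5 (62.1 to 75.5). Dst was at 730 (672 to 791) and 649 (586 to 718) in k13, and at 500 (416 to 595) and 318 (304 to 332.3) in k5. The counting intervals of the arms overlap for Lamb3 in k5 and for Dst in k13, and they leave out the spread between pools, so no difference within a cluster is read from them.

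Col17a1 and Lama3 are given in the same way. Col17a1 was at 1372 CPM (1293 to 1456) in control and 1412 (1318 to 1511) in expanded cells of k13, and at 460 (380 to 552) and 828 (806 to 852) in k5. Lama3 was at 77.2 (59.2 to 99.0) and 71.0 (51.2 to 96.0) in k13 and at 20 (6.49 to 46.6) and 41.5 (36.5 to 46.9) in k5. Itga6 was at 557 and 597 in k13 and at 220 and 369 in k5. Within either cluster there were too few cells per library for a test, and the part of the unequal clusters in the subset's result was not tested.

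Depth and other transcripts also moved with the basal-like result. Basal-like cells had 9661 UMIs each in control and 21647 in expanded libraries. A Lamb3 UMI was found in 73.4% of 109 control and 67.4% of 307 expanded cells, and after thinning to 2000 UMIs in 34.3% of 105 and 13.1% of 306. With thinned sums Dst had −1.11 (edgeR adjusted p = 0.053), Col17a1 −0.70 (adjusted p = 0.073), and Lamb3 and Lama3 were too low to be tested. The 7 fibroblast genes summed to 253 to 989.6 CPM in control and 29.6 to 184 CPM in expanded basal-like cells, with 5 of 5 tested called lower and none at 0. Fibroblast-like cells themselves held 0.61 CPM of Lamb3 and 164 CPM of Dst. The 7 leukocyte genes ran from 62.6 to 129 and from 47.7 to 2346 CPM, with none at 0, and their part was not tested.

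Other genes of the structure gave a mixed picture in basal-like cells. Erbin was lower (−0.68, SE 0.20, edgeR adjusted p = 0.029), whereas Krt5 (0.11), Krt14 (−0.10) and Cd151 (0.43, adjusted p = 0.20) did not pass. Col7a1, which forms the anchoring fibrils beneath laminin-332, fell from 60.1 ± 5.81 to 24.3 ± 3.15 CPM (SD, n = 4 each; −1.45, SE 0.24, adjusted p = 0.0023), and Agrn by 0.89 on the log2 scale (adjusted p = 0.014), 2 of 5 basement membrane genes tested. Of 10 other integrin and focal adhesion genes, 3 were lower: Itga2 (−2.22, adjusted p = 0.0028), the integrin-linked kinase Ilk (−1.56, adjusted p = 0.0069) and Itgav (−0.66, adjusted p = 0.0498). The medians of these last 2 lists were 0.13 and −0.42, against −0.02 over all genes. Among 3 wound-induced keratins tested, Krt6a (3.05, adjusted p = 0.0049) and Krt17 (0.88, adjusted p = 0.039) rose.

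In bulge-like cells, the largest subset, 0 of 9 members passed edgeR's test, where 2.99% of all genes did. Dst came closest. It was at 1097, 723, 975 and 786 CPM in 4 control libraries (day 2 round 1 had too few cells) and at 745, 720.4, 504, 593 and 566 CPM in 5 expanded libraries, lower in 4 of 4 pairs. The log2 fold change was −0.55 (SE 0.14, adjusted p = 0.054), and the lowest control overlapped the highest expanded library. Lamb3 was at 183, 147, 181 and 163 CPM in control and 149, 142, 135, 128 and 106 CPM in expanded libraries, also lower in 4 of 4 pairs (−0.40, SE 0.12, adjusted p = 0.096). Lama3 had −0.42 (SE 0.17, adjusted p = 0.18).

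The other 6 lay near 0 in the bulge, and 2 to 5 of the 9 members were positive over the alternatives run: Itgb4 0.16, Itga3 0.12, Plec 0.02, Itgb1 −0.05, Col17a1 −0.05 and Itga6 −0.08. Dst, Lamb3 and Lama3 were the 3 members with an unadjusted p under 0.05, which 1794 of 8467 genes also had. DESeq2 called 1 member, Dst, and 304 genes. The median over members was −0.05 and over all genes −0.01. Of the other lists, 1 of 18 basement membrane genes (Col4a5, a type IV collagen chain, −0.99, adjusted p = 0.043) and 0 of 18 integrin genes passed. The 7 fibroblast genes summed to 702.5 to 1447 CPM in control and 189.9 to 387 CPM in expanded bulge-like cells, with 6 of 6 tested called lower and none at 0, and their part was not tested.

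Upper follicle-like cells, present in all 10 libraries, gave 0 of 9 members by edgeR and by DESeq2, against 1.26% of all genes by edgeR. Values were positive for 1 of 9 members, with a median of −0.23 against −0.01 over all genes. That count of signs is not stable: it was 5 of 9 with the members and basement membrane genes kept in the clustering, 3 of 9 without either day 4 library, 2 of 9 with subsets from a resolution of 1.5 and 3 of the 7 tested with thinned cells. Lamb3 was at 79.1, 66.5, 127, 77.4 and 84.9 CPM in control and 82.9, 47.9, 54.6, 53.7 and 54.3 CPM in expanded libraries (−0.55, SE 0.21, edgeR adjusted p = 0.17). All expanded libraries but that of day 1 round 1 lay below every control. Lama3 (−0.52, adjusted p = 0.23), Itga6 (−0.42, adjusted p = 0.23) and Dst (−0.37, SE 0.13, adjusted p = 0.15) also had an unadjusted p under 0.05, and Itgb4 (0.15) was the positive one. Of all 7599 genes, 1453 had an unadjusted p under 0.05. The 7 fibroblast genes summed to 162 to 1234 CPM in control and 35.0 to 181 CPM in expanded upper follicle-like cells, 5 of 5 tested called lower.

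Whether the basal-like fall differed from that in the follicle was tested with the library as a block. Of the 27 differences between basal-like, bulge-like and upper follicle-like cells, 0 passed edgeR's test, and 7 had an unadjusted p under 0.05. Lamb3 in basal-like cells changed by a further −0.96 (SE 0.27, adjusted p = 0.078) beyond bulge-like and −0.97 (SE 0.27, adjusted p = 0.072) beyond upper follicle-like cells. For Dst these differences were −0.64 (SE 0.27, adjusted p = 0.23) and −0.83 (SE 0.21, adjusted p = 0.055), and for Col17a1 −0.62 (adjusted p = 0.24) and −0.62 (adjusted p = 0.23). Across all genes 1.83% and 1.98% of such differences passed, and 0.0903% between bulge-like and upper follicle-like cells. In the same order, 1514 of 9129, 1447 of 8486 and 513 of 8857 genes had an unadjusted p under 0.05.

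**Figure D4:**
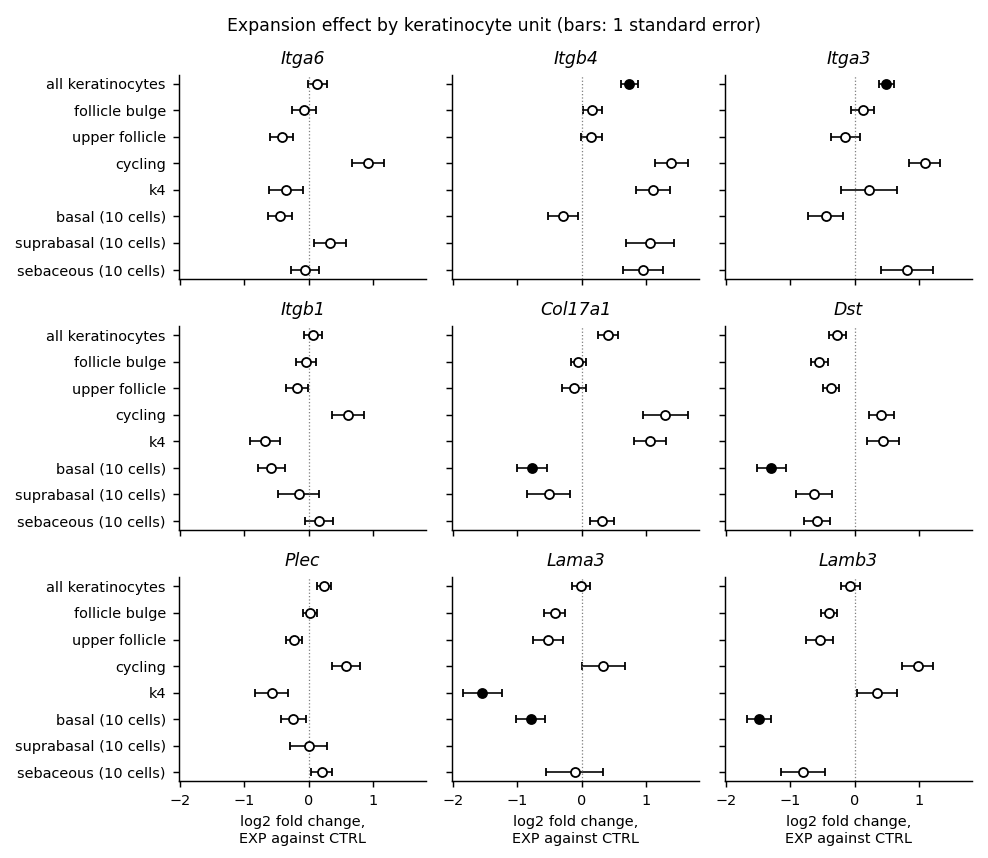
Log2 fold change of expanded against control (x axis) with 1 standard error for each of the 9 genes in all keratinocytes and in 7 keratinocyte units; filled points passed the test at an adjusted p of 0.05. Filled points are Itgb4 and Itga3 in all keratinocytes, Col17a1, Dst, Lama3 and Lamb3 in basal-like cells and Lama3 in k4.

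Cycling keratinocytes had positive values for 9 of 9 members (8 with the day and round block or without control day 2 round 2 or expanded day 2 round 1), though 0 passed edgeR's test with 4 control and 3 expanded libraries, and 0.0124% of all genes did (7 members and 956 of 8035 genes had an unadjusted p under 0.05). The median of the members was 0.92, against 0.00 over all genes. Control libraries were those of day 1 rounds 1 and 2, day 2 round 2 and day 4. Expanded ones were day 1 round 2, day 2 round 1 and day 4, so 2 pairs were shared. Itgb4 was at 30.9, 42.1, 75.7 and 41.0 CPM in control and 122, 127 and 128 CPM in expanded libraries without overlap (1.39, SE 0.26, adjusted p = 0.16). Lamb3 had 23.8, 27.9, 51.1 and 33.4 CPM and 67.7, 80.9 and 60.7 CPM, again apart (0.98, SE 0.24, adjusted p = 0.22), and Col17a1 had 1.30 (SE 0.35, adjusted p = 0.27). With the day and round block, Itgb4 and Col17a1 passed, as did 511 of 8453 genes. DESeq2 called 1 member and 48 of 8035 genes. Leaving out control day 2 round 2 or expanded day 2 round 1 gave 3 members, Itgb4, Col17a1 and Lamb3. Those 2 fits called 552 of 8305 and 563 of 8940 genes.

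The cycling cells also joined clusters that filled the arms unequally. Cluster k7, led by the hair shaft and root sheath genes Krt25, Krt28, Krt35 and Krt71, held 210 control and 12 expanded cells, and k9, led by the mitosis genes Cenpf, Hmmr and Aspm, held 91 and 100. Lamb3 was at 8.84 CPM in control and 47.0 in expanded cells of k7, and at 97.0 and 72.5 in k9. Col17a1 was at 34.4 and 176 in k7 and at 570 and 538 in k9. Itgb4 was at 23.1 and 52.8 in k7 and at 98.4 (82.6 to 116) and 150.0 (135 to 166) in k9, and Itga6 at 225 and 367 in k9. These sums over libraries carry counting error only and were not tested. The part of the clusters in the subset's values was not tested.

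In the remaining keratinocyte units few members passed. The k4 values come from control day 1 round 2, day 2 round 2 and day 4. Expanded k4 libraries were day 1 rounds 1 and 2 and day 4, so 2 pairs were shared. In k4, which carried the bulge genes Lgr5 and Lhx2 and was led by Slc7a2, Fam13a and Lef1, 1 of 9 passed: Lama3 was at 303, 68.0 and 107 CPM in 3 control and 81.2, 80.1 and 57.2 CPM in 3 expanded libraries (−1.54, SE 0.30, edgeR adjusted p = 0.036), against 1.22% of genes called in either direction and 0.637% lower. The value rests on control day 1 round 2, which stands far above the rest; without it the log2 fold change was −0.84 (adjusted p = 0.71). Without expanded day 1 round 2 the adjusted p was 0.31, and with the day and round block the adjusted p was 0.18. Itgb4 (1.10, SE 0.26, adjusted p = 0.069) and Col17a1 (1.06, SE 0.25, adjusted p = 0.067) did not overlap between the arms in k4, with the expanded one higher, nor did Itgb1 (−0.68, SE 0.24, adjusted p = 0.19), with the expanded one lower. With only 3 libraries per arm, arms can part easily, and the share of all genes without overlap was not counted.

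In k11, which carried 7 of 8 suprabasal and 6 upper follicle markers, 7 members could be tested in 4 libraries per arm with at least 10 cells, and 1 passed, where 3.51% of genes passed in either direction and 1.29% were higher. Itgb1 was at 104, 78.5, 211 and 144 CPM in control and 438, 648, 622 and 308 CPM in expanded libraries, without overlap and higher in 3 of 3 pairs (1.81, SE 0.30, adjusted p = 0.0089). Without control day 1 round 1 its adjusted p was 0.064. Lamb3 (1.47, adjusted p = 0.062), Col17a1 (1.37, adjusted p = 0.093) and Itgb4 (1.17, adjusted p = 0.053) had positive and Dst (−0.84, adjusted p = 0.20) negative values short of the threshold.

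Sebaceous-like, suprabasal-like and k8 cells, tested at 10 cells per library, had 0 members called by edgeR and 0 by DESeq2. Backgrounds were 1.08%, 6.95% and 0.744% of genes. An unadjusted p under 0.05 was found for 3 of 9, 2 of 6 and 2 of 7 tested members. For all genes it was found for 851 of 6094, 1068 of 4823 and 331 of 2286. Suprabasal-like Itgb4 had 1.06 (SE 0.38, adjusted p = 0.11), and sebaceous-like Itgb4 0.94 (SE 0.31, adjusted p = 0.19). Sebaceous-like Lamb3 had −0.81 (adjusted p = 0.32) and k8 Lamb3 −0.74 (adjusted p = 0.18), the latter without overlap between the arms.

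Away from the keratinocytes and summed per library, Dst and Itga6 were lower in expanded vessel cells. Endothelial-like cells joined a cluster of 2198 cells, led by Rbp7 and Sox17, and one of 459 cells, led by Sele and Selp. Expanded endothelial-like cells were also deeper: on day 4, 543 control cells held 3320702 UMIs and 251 expanded cells 3317935. The part of the joined clusters and of depth was not tested. In endothelial-like cells Dst was at 356, 452, 470.3, 426 and 528 CPM in control and 247, 301, 289, 222 and 385 CPM in expanded libraries, lower in 5 of 5 pairs (−0.73, SE 0.13, edgeR adjusted p = 0.0074). The expanded library of day 4 alone lay within the control range. Itga6 there was at 290.5, 355, 262, 264 and 331.9 CPM and 242, 269, 184, 206 and 228 CPM (−0.52, SE 0.11, adjusted p = 0.012), also lower in 5 of 5 pairs, with 1 expanded library inside the control range. Lama3, at 15.9 ± 2.64 and 10.0 ± 3.23 CPM (SD, n = 5 each), had −0.76 (SE 0.22, adjusted p = 0.042). Its call was lost in 8 of the 10 fits that left out a library, under total UMI scaling and with DESeq2. So 3 of 8 tested members passed, all lower, against 11.7% of genes in either direction and 6.13% lower.

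In lymphatic endothelial-like cells, Itga6 was at 162, 169, 219.5, 184 and 186 CPM in control and 136, 142, 107, 151 and 107 CPM in expanded libraries, without overlap (−0.60, SE 0.17, edgeR adjusted p = 0.029). This was 1 of 5 tested, against 12.2% of genes and 6.41% lower, and Dst had −0.46 (SE 0.15, adjusted p = 0.055). The Itga6 call was lost under total UMI scaling and without either library of day 2 round 1 or day 4, or control day 2 round 2, and with the day and round block 2 members passed. In pericyte or smooth muscle-like cells, Dst was at 321, 344, 305, 272 and 413 CPM in control and 222, 184, 163, 222 and 185 CPM in expanded libraries. The arms did not overlap, and the log2 fold change was −0.87 (SE 0.14, adjusted p = 0.0022). This was 1 of 3 tested, against 19.2% of genes and 11.2% lower, and it passed under every alternative run.

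**Figure D5:**
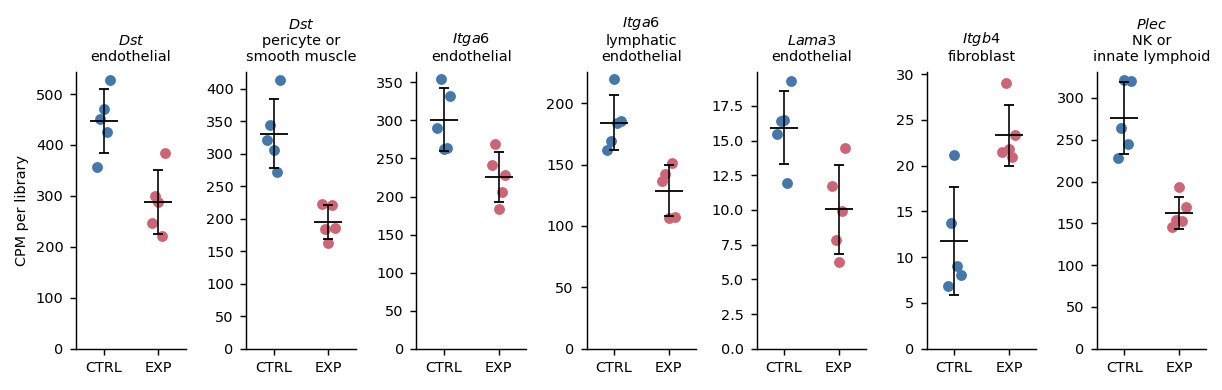
CPM per library (y axes from 0) of the members called outside the keratinocytes, in 5 control (blue) and 5 expanded (red) libraries, with mean ± SD in black. Dst in endothelial and pericyte or smooth muscle cells, Itga6 in both kinds of endothelium, Lama3 in endothelium and Plec in natural killer or innate lymphoid cells are lower in expanded libraries, and Itgb4 in fibroblasts is higher.

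Fibroblast-like cells had 1 of 7 tested members called, against 30% of genes and 14.3% higher. Itgb4 was at 6.82, 13.8, 21.1, 9.06 and 8.08 CPM in control and 21.5, 29.0, 21.8, 20.9 and 23.4 CPM in expanded libraries (0.84, SE 0.27, edgeR adjusted p = 0.036), higher in 5 of 5 pairs and lost in 7 of the 10 fits that left out a library. In these fibroblast-like cells Krt14 was at 8.22 ± 4.74 CPM in control and 23.9 ± 13.7 in expanded libraries, and Krt5 at 4.18 ± 2.40 and 12.2 ± 6.30 (SD, n = 5 each), and their part was not tested. Natural killer or innate lymphoid-like cells had lower Plec, at 228, 264, 322, 245 and 320.0 CPM in control and 146, 153, 194, 152 and 169 CPM in expanded libraries, without overlap (−0.83, SE 0.16, adjusted p = 0.027). That was 1 of 4 tested, against 0.556% of genes and 0.511% lower, and it was lost without either library of day 1 round 1, day 1 round 2 or day 4.

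Schwann-like, T cell-like, dendritic-like, macrophage or monocyte-like and melanocyte-like cells had 0 members called by edgeR among 5, 5, 3, 4 and 4 tested. Backgrounds were 0.197%, 0.165%, 18.7%, 22.2% and 1.33% of genes. In macrophage or monocyte-like cells 3 members and 3811 of 10139 genes had an unadjusted p under 0.05. These members included Itgb1 (−0.38, SE 0.13, edgeR adjusted p = 0.068) and Plec (−0.58, SE 0.21, adjusted p = 0.073). DESeq2 called 2 members and the fit with the day and round block 3. In the other 4 classes no member had an unadjusted p under 0.05, and DESeq2 called 0. Schwann-like cells, which hold Itga6 and Itgb4 at levels near those of the bulge, had −0.13 (SE 0.18) and 0.21 (SE 0.24) for the pair.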

How the data were processed

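Gene counts (UMIs, whole numbers) of 10 mRNA libraries were used as the authors deposited them, made with Cell Ranger 6.1.2 on mm10 per the submitters' processing notes. Barcodes under 200 genes, under 500 UMIs or over 10% mitochondrial UMIs were dropped, and sample-tag and predicted doublets (1.05% to 5.78% per library) were removed. Cells were clustered with scanpy 1.11.5 and leidenalg 0.10.2, and keratinocytes again, without the 9 members and the basement membrane genes. UMIs were summed per subset and library (at least 20 cells, or 10 where too few libraries had 20) and tested with edgeR 4.0.16 (R 4.3.3), quasi-likelihood, TMM scaling, filterByExpr, day and arm as terms, Benjamini-Hochberg over all genes tested, threshold 0.05. The SE is the log2 fold change divided by the t quantile of its p. DESeq2 1.42.0 and other settings were alternatives, and the test was tried on simulated data. Named genes are all members, called genes of the fixed lists (at most 6 of smallest adjusted p per list and subset), Cd151, Krt5, Krt14 and the 5 most similar genes of 4 members; list genes given without a call, and leukocyte and fibroblast values, were added by name for context. Some genes of these lists are not reported here. Members and lists were chosen with earlier results of these data known, and details of cluster naming were set while the clusters were examined. The labels give the arms shared days and rounds, which pair the libraries: deviations of paired libraries correlated at 0.02 to 0.48 over all keratinocytes. Library pairs shared 363 barcodes in all. Intervals cover counting error only. Sequence positions and windows are those of GRCm38.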

Additional observations from a re-analysis of the deposited data

Results flagged for a closer look

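Of 72 groups of libraries examined, 2 had a library far from the rest, and chance gives about 1 in 20. In upper follicle-like cells, Itga3 was at 11.93 CPM in the expanded library of day 2 round 2, while the other 4 expanded libraries had 23.59 to 27.03 CPM. In the same subset, Lamb3 was at 82.91 CPM in the expanded library of day 1 round 1, while the other 4 had 47.88 to 54.56 CPM.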

How the results depend on the processing

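No member called changed sign under any alternative run; uncalled members did, as given above. The number of members called moved as follows. With cells thinned to 2000 UMIs, all keratinocytes went from 2 to 0, with 9 members tested. Basal-like went from 4 to 0 and k4 from 1 to 0, but only 5 members were tested in each. In k11, 0 members had enough counts to be tested, so its fall from 1 to 0 says nothing about the call. With a 5% mitochondrial limit, all keratinocytes had 1, k11 4 and k4 0. With total UMI scaling, basal-like had 2, k4 2, k11 2, dendritic-like 1, fibroblast-like 2, endothelial 2 and lymphatic 0. Without the filter on low counts, all keratinocytes had 3 (Col17a1 added), basal-like 2, cycling 4, bulge-like 1, k4 3, k11 6, sebaceous-like 2 and suprabasal-like 1. The genes called were then 1976 of 21931 in all keratinocytes, 1497 of 16683 in basal-like and 449 of 17346 in cycling cells. They were 721 of 18869 in bulge-like, 328 of 15929 in k4 and 337 of 14264 in k11 cells. With DESeq2, cycling had 1, bulge-like 1, k4 2, k11 3, endothelial 2, lymphatic 2 and macrophage 2. DESeq2 called 48 of 8035 genes in cycling, 304 of 8467 in bulge-like, 66 of 5810 in k4 and 126 of 2795 in k11 cells. With members and basement membrane genes kept in the clustering, basal-like had 3. With 10 cells in place of 20, bulge-like had 1 and k4 0. With the day and round pairing as a replicate block, cycling had 2, k4 0, lymphatic 2 and macrophage 3, against 0, 1, 1 and 0 without it. All keratinocytes (2), bulge-like (0), upper follicle-like (0), k11 (1) and endothelial (3) counts were the same with the block, and basal-like cells had 5. The block called 1351 of 11476 genes in all keratinocytes, 1450 of 7116 in basal-like, 511 of 8453 in cycling and 0 of 6487 in k4 cells.

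Leaving out single libraries gave 1 to 2 in all keratinocytes (0 to 3 on day 1), 2 to 6 in basal-like, 0 to 3 in cycling, 0 to 1 in bulge-like, 0 to 4 in k11, 0 to 2 in k4, 0 to 1 in sebaceous-like and 0 to 2 in suprabasal-like cells. Elsewhere it gave 2 to 4 in endothelial, 0 to 1 in lymphatic and in natural killer-like, 0 to 2 in fibroblast-like and 0 to 3 in macrophage cells, and 4 to 6 members highest in the bulge. Genes called over the fits that left out a library also varied. They ran from 218 to 1564 in all keratinocytes and from 750 to 1628 in basal-like cells. In cycling cells they ran from 0 to 563 and in bulge-like cells from 37 to 212. The causes were not tested. Basal-like libraries held as few as 17 cells, which limits the precision there.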
